A study of Drosophila melanogaster with 6 samples.

Results

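Rhodopsin shut-off, maturation and chromophore genes were examined in the head RNA of *Drosophila melanogaster*: *Arr1*, *Arr2*, *Gprk1*, *rdgC*, *ninaA*, *ninaB*, *ninaD*, *santa-maria*, *rdgA* and *rdgB*. They are 10 of the 17559 genes with a row in the count tables, and were named by their FlyBase symbols, by a rule that sets no threshold on a measured value; earlier results of these data were known when they were chosen. The study set neuron-specific knockdowns of fly homologs of human disease genes against driver-only controls, and the libraries described here are its control groups. The Dicer2 25C control (n = 3 libraries) came from flies kept at 25°C that had 1 copy of *Elav-GAL4* over *w[1118]* and, on the third chromosome, 1 copy of *UAS-Dicer2* (*UAS-Dicer2/+*). The RT control (n = 3 libraries) came from *w[1118],Elav-GAL4/w[1118]* flies with no *UAS-Dicer2*, kept at room temperature, for which no value in degrees is given. Both groups were female progeny labelled with VDRC stock v60000, and both carried *w[1118]* and the *Elav-GAL4* driver, which is active in neurons, photoreceptors included. In the Dicer2 25C control this driver also raised Dicer-2, the ribonuclease of the RNA interference pathway. Each library held polyadenylated RNA of a pool of 35 to 40 heads, and the age of the flies is not given in the sources used here. The study's methods list an *Elav-GAL4* driver stock with both *UAS-Dicer2* and *mcd8-GFP*, another with *UAS-Dicer2* and no *mcd8-GFP*, and 1 without either. The labels do not name *mcd8-GFP*. *UAS-Dicer2*, the driver stock with any *mcd8-GFP*, and temperature therefore changed together between the groups and cannot be told apart.

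In the fly eye, light turns rhodopsin into metarhodopsin, which activates a Gq protein and phospholipase C until arrestin binds it; kinases and phosphatases set its phosphorylation, and the lipid that phospholipase C consumes is rebuilt through diacylglycerol kinase and a phosphatidylinositol transfer protein. The major rhodopsin, Rh1, reaches the light-sensing membrane only with the help of a cyclophilin chaperone in the secretory pathway. It must also have bound a chromophore made from dietary carotenoids. Loss of such genes is known for lowered rhodopsin (the *nina* mutants) or for retinal degeneration (the *rdg* mutants).

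Reads counted on genes numbered 18651266 to 25183878 in the Dicer2 25C libraries and 33898008 to 42487803 in the RT libraries. A count of 3 was worth between 0.071 and 0.161 CPM (a gene's count scaled by the total of its library), and this floor covers counting error only. All levels below are CPM scaled by the TMM method of edgeR. *Dcr-2* lay between 506 and 609 CPM in the Dicer2 25C control and between 55.6 and 61.4 CPM in the RT control. The Dicer2 25C replicates differed by exon length over 9976 genes with a known length. For replicate 3, the Spearman correlation with length of its log2 ratio to replicates 1 and 2 was -0.42, and genes over 5 kb had a median of -0.28. The same measures, each against the other replicates of the group, were 0.40 and 0.19 for replicate 1 and 0.22 and 0.081 for replicate 2. As each ratio uses all 3 replicates, these values are not independent. Replicate 1 of the RT control was the lowest of its group for 6 of the 10 genes. Replicate 1 of the Dicer2 25C control had 69361668 alignments set aside as not unique, against 7164088 to 8454145 in the other libraries. In replicate 3 of the RT control, *w*, the white eye colour gene, was at 810 CPM, against 40.2 and 54.1 CPM in RT replicates 1 and 2 and 86.7 to 103 CPM in the Dicer2 25C control. The fold changes of the 10 genes are also given without Dicer2 25C replicate 3 and RT replicate 1, a choice made after the data were seen. That fit kept Dicer2 25C replicate 1 and RT replicate 3, each the highest of its group for 6 of the 10 genes.

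All 10 genes passed the expression filter of edgeR, and their counts were far above the floor in every library, from 195 counts of *ninaD* in RT replicate 1 to 613834 counts of *Arr2* in RT replicate 2. By the quasi-likelihood test of edgeR, with p adjusted after Benjamini and Hochberg over all 10187 genes tested, 2 of the 10 genes were higher in the Dicer2 25C control than in the RT control at an adjusted p under 0.05, *ninaD* and *Gprk1*, and none was lower. Over all genes tested, 10.1% passed this threshold, 4.83% as higher and 5.28% as lower in the Dicer2 25C control. A further threshold of the study, an absolute log2 fold change above 1, was met as well by 0 of the 10 genes and by 2.82% of all genes. An unadjusted p under 0.05 was reached by 3 of the 10 genes and by 3131 of all 10187. With DESeq2, 2 of the 10 genes and 1889 of all 10187 passed an adjusted p under 0.05. In 3 of the 10 genes every Dicer2 25C library lay above every RT library (*ninaA*, *ninaD* and *Gprk1*), beside 18.0% of all genes in that same direction. The opposite order held for 0 of the 10, and its share over all genes was not counted. The median log2 fold change was 0.041 over the 10 genes and 0.0038 over all genes tested. Read against these shares, the counts are no result about the 10 genes as a group, and each gene is described by its own values.

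**Figure D1:**
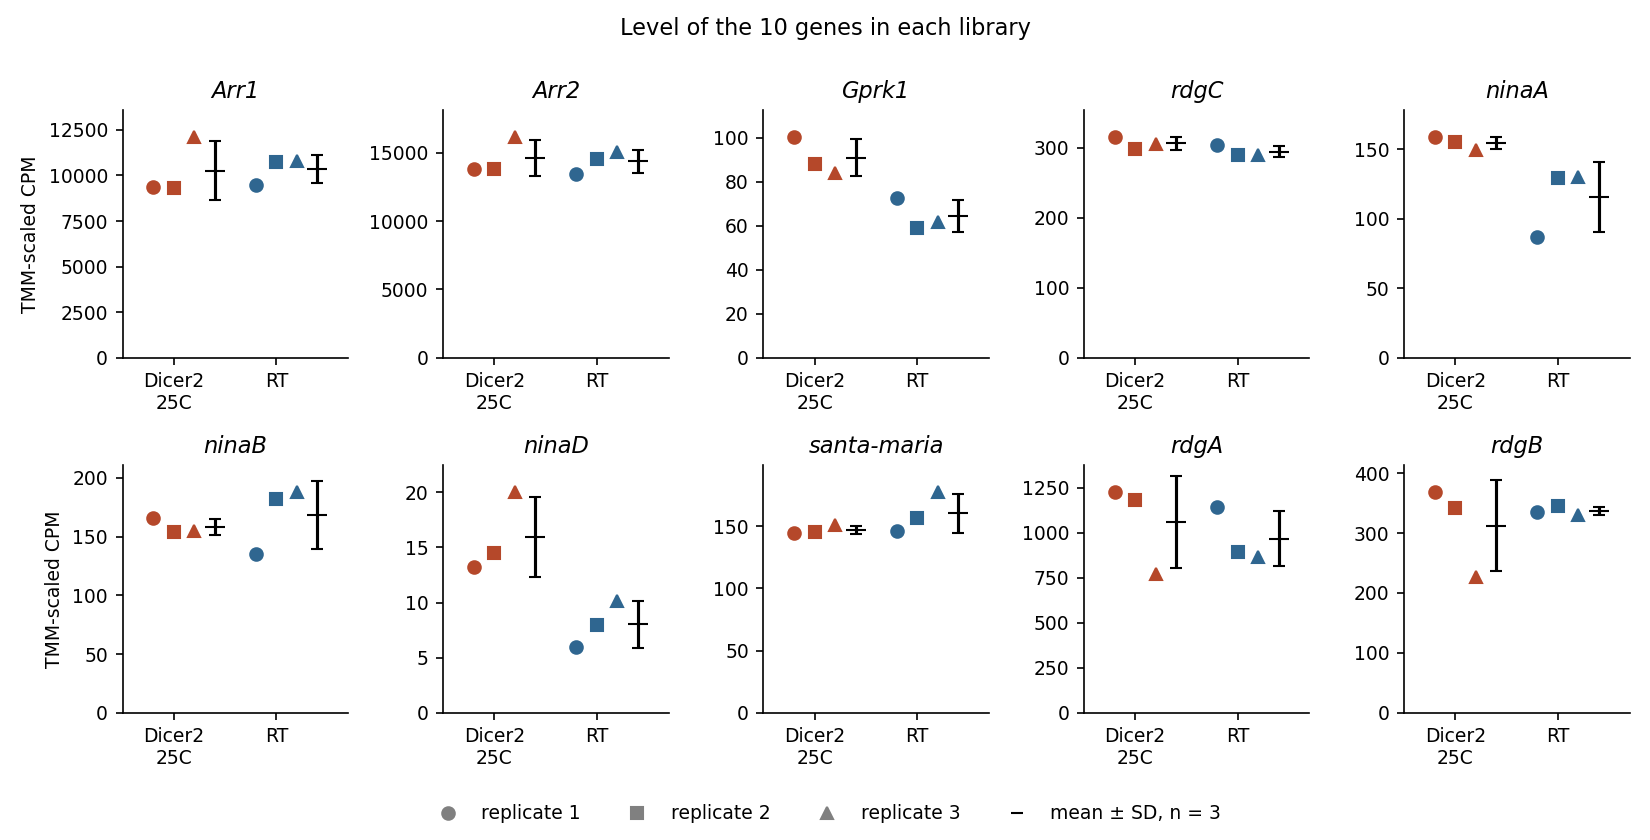
Level of each of the 10 genes in TMM-scaled CPM (linear axes from 0) in the 3 Dicer2 25C control libraries and the 3 RT control libraries, with symbols for replicates 1, 2 and 3 and the mean ± SD beside them. All Dicer2 25C points lie above all RT points for *Gprk1*, *ninaA* and *ninaD*, and replicate 3 of the Dicer2 25C control lies apart for *Arr1*, *rdgA* and *rdgB*.

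The arrestins were the most abundant of the 10 transcripts per kilobase. *Arr2* (chromosome 3L from 8647261 to 8648936, minus strand, in the BDGP6.54 annotation) encodes the major visual arrestin, and *Arr1* (2L from 18078269 to 18081307, plus strand) the minor one; both bind metarhodopsin and end its signalling. *Arr2* was at 13838, 13828 and 16154 CPM in replicates 1, 2 and 3 of the Dicer2 25C control, and at 13462, 14553 and 15073 CPM in those of the RT control. *Arr1* was at 9385, 9306 and 12119 CPM in the Dicer2 25C control and at 9458, 10747 and 10808 CPM in the RT control. The groups overlapped for both, and the highest value of each gene was in Dicer2 25C replicate 3. The log2 fold change of the Dicer2 25C control over the RT control was 0.024 ± 0.17 (SE) for *Arr2* and -0.0095 ± 0.18 for *Arr1*, with adjusted p = 0.94 and 0.98 in edgeR's quasi-likelihood test. The sign of either value changed with the scaling, the filter or the libraries included.

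Together the arrestins took 2.34% to 3.01% of all counted reads in the Dicer2 25C control, against 2.15% to 2.51% in the RT control. The ratio of *Arr2* to *Arr1* counts, which needs no scaling, was 1.47, 1.49 and 1.33 in the Dicer2 25C control, against 1.42, 1.35 and 1.39 in the RT control. Its mean was 1.43 ± 0.085 in the Dicer2 25C control, against 1.39 ± 0.035 in the RT control (SD, n = 3 each), a log2 difference of 0.040 (two-sided exact permutation test over libraries, p = 0.6, where 0.1 is the smallest p that 3 against 3 can give). *Arr1* varied by 15.6% among the Dicer2 25C replicates (coefficient of variation) where counting error alone gives 0.21%, so depth did not limit these values.

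*Gprk1* (FBgn0260798, chromosome arm 2R, minus strand), a G protein-coupled receptor kinase that phosphorylates rhodopsin in fly photoreceptors, was higher in the Dicer2 25C control. It was at 101, 88.3 and 84.2 CPM there, and at 72.8, 58.8 and 61.7 CPM in the RT control. The lowest Dicer2 25C library was above the highest RT library. Means were 91.0 ± 8.48 CPM in the Dicer2 25C control, against 64.5 ± 7.35 CPM in the RT control (SD, n = 3 each), a 1.41-fold difference (log2 fold change 0.50 ± 0.11 SE, adjusted p = 0.037 in edgeR's quasi-likelihood test). Leaving out 1 library at a time kept the log2 fold change between 0.42 and 0.59, while the adjusted p lay between 0.020 and 0.12 and was under 0.05 in 2 of the 6 fits, those without Dicer2 25C replicate 3 and without RT replicate 1. It was 0.108 without Dicer2 25C replicate 1, 0.124 without Dicer2 25C replicate 2, 0.105 without RT replicate 2 and 0.118 without RT replicate 3.

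*rdgC* (3L from 20248080 to 20265554, plus strand) encodes the calcium-dependent phosphatase that removes phosphate from rhodopsin, the opposite step to that of *Gprk1*. It was at 316, 298 and 305 CPM in the Dicer2 25C control and at 304, 290 and 290 CPM in the RT control, the steadiest of the 10 genes over both groups. The groups overlapped, and the log2 fold change was 0.06 ± 0.07 (SE, adjusted p = 0.61 in edgeR's quasi-likelihood test). The replicates varied by 2.90% in the Dicer2 25C control, against 2.67% in the RT control, where counting error alone gives 1.21% and 0.977%.

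In the fit of all 6 libraries, *stops* and *Cam* rose with *Gprk1* among the deactivation genes. The list held 14 genes, of which 13 had a row and were tested. Of these, 3 were higher in the Dicer2 25C control, 0 were lower (4.83% and 5.28% of all genes), and 10 did not pass the test; the median log2 fold change was 0.13. *stops*, which encodes a SOCS-box protein needed for the response to light to end, was at 190, 182 and 181 CPM in the Dicer2 25C control and at 142, 141 and 139 CPM in the RT control (log2 fold change 0.39 ± 0.06 SE, adjusted p = 0.017 in edgeR's quasi-likelihood test). *Cam*, the calmodulin gene, was at 3432, 3428 and 3230 CPM in the Dicer2 25C control and at 2396, 2207 and 2312 CPM in the RT control (0.55 ± 0.11, adjusted p = 0.032). Calmodulin is made by every cell type of the head. *Gprk2*, the other receptor kinase, had a log2 fold change of -0.05 ± 0.08 (adjusted p = 0.72), and *krz*, the non-visual arrestin, of -0.07 ± 0.17 (adjusted p = 0.81).

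**Figure D2:**
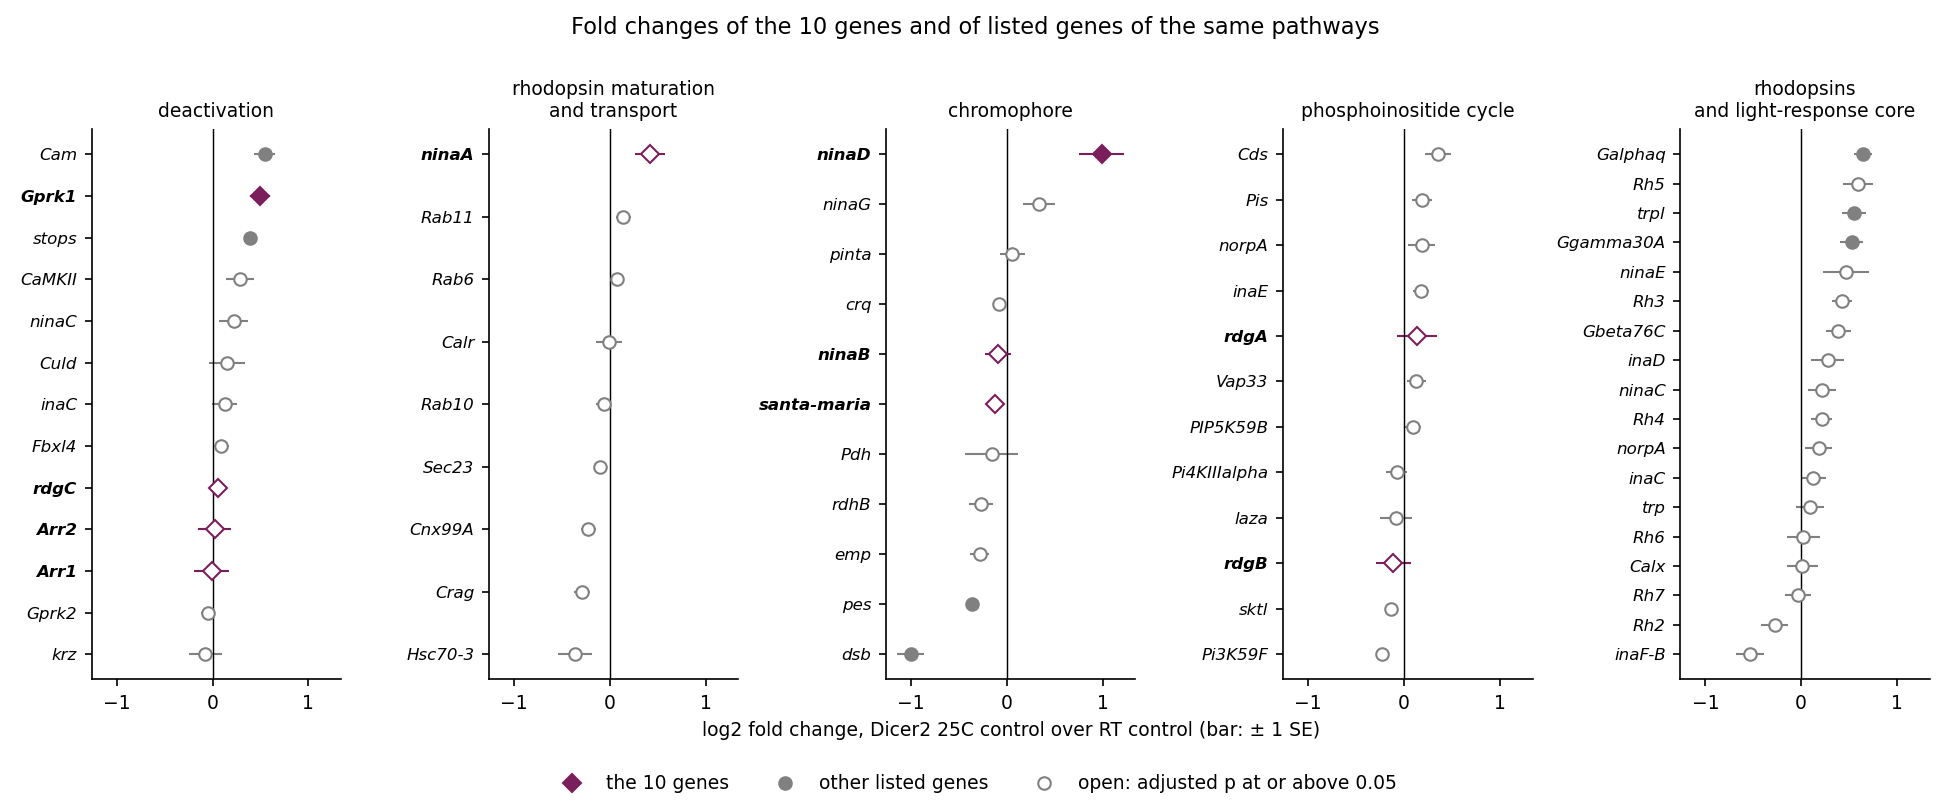
Log2 fold change of the Dicer2 25C control over the RT control (horizontal axis, bars ± 1 SE) for the 10 genes (diamonds, names in bold) and for the other tested genes of 5 pathway lists (circles), filled where the adjusted p was under 0.05. *Gprk1* and *ninaD* are the filled diamonds, at 0.50 and 0.99, and the maturation and phosphoinositide lists hold no filled symbol.

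*ninaA* (2L from 877302 to 878270, plus strand) encodes the cyclophilin that escorts the major rhodopsin Rh1 through the secretory pathway. It was at 159, 155 and 150 CPM in the Dicer2 25C control and at 86.8, 130 and 130 CPM in the RT control. The groups did not overlap, and RT replicate 1 was far below the other RT libraries. The difference did not pass the test (log2 fold change 0.42 ± 0.16 SE, adjusted p = 0.13 in edgeR's quasi-likelihood test), and without RT replicate 1 the log2 fold change was 0.25 ± 0.06 (adjusted p = 0.060). All 871 exonic bases of *ninaA* lie within exons of *CG15824* on the opposite strand, which had 13 to 17 counts in every library; the library kit keeps strand, but the strand setting used in counting is not given in the sources used here.

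The other genes of rhodopsin maturation and transport gave no call either. Of the 12 on the list, 11 had a row and 9 were tested, and 0 of the 9 passed the test as higher or lower in edgeR's quasi-likelihood test (4.83% and 5.28% of all genes). At an unadjusted p under 0.05, 1 of them was higher, *ninaA*, and 2 were lower, and DESeq2 called 0 as higher and 1 as lower. Over all 10187 genes, in either direction, these numbers were 3131 and 1889. The median log2 fold change of the list was -0.06. *Hsc70-3*, the endoplasmic reticulum chaperone BiP, was the gene farthest below 0 on the list, at 380, 406 and 421 CPM in the Dicer2 25C control, against 411, 474 and 663 CPM in the RT control (-0.36 ± 0.18 SE, adjusted p = 0.22 in edgeR's quasi-likelihood test), and *Calr*, the calreticulin gene, had a log2 fold change of -0.0059 ± 0.14 (adjusted p = 0.98). *Xport-A*, an exit factor for Rh1 and the TRP channel, was at 0 counts in all 6 libraries, and *Xport-B* was at 1 count in Dicer2 25C replicate 1 and 0 in the other 5. Every annotated exon of *Xport-A* lies within exons of *Xport-B* on the same strand, and reads shared by several genes were not counted, so these counts set no limit on the level of either gene.

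The chromophore genes gave the largest fold change among the 10. *ninaD* (2L from 18081628 to 18083608, plus strand) encodes a class B scavenger receptor for carotenoid uptake, known mainly from the gut. It was at 13.3, 14.5 and 20.1 CPM in the Dicer2 25C control (253, 369 and 470 counts) and at 5.95, 7.94 and 10.2 CPM in the RT control (195, 335 and 334 counts). The groups did not overlap, although the highest library of each group was 1.51 times its lowest in the Dicer2 25C control, against 1.71 times in the RT control. Means were 15.9 ± 3.63 CPM in the Dicer2 25C control, against 8.02 ± 2.11 CPM in the RT control (SD, n = 3 each), a 1.99-fold difference (log2 fold change 0.99 ± 0.23 SE, adjusted p = 0.045 in edgeR's quasi-likelihood test).

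The call for *ninaD* lay close to the threshold. The adjusted p was above 0.05 in each of the 6 fits that left out 1 library, from 0.058 to 0.13, with log2 fold changes from 0.79 to 1.19. It was 0.089 without Dicer2 25C replicate 1, 0.129 without replicate 2 and 0.066 without replicate 3, and 0.058 without RT replicate 1, 0.114 without replicate 2 and 0.075 without replicate 3. Without both Dicer2 25C replicate 3 and RT replicate 1 the log2 fold change was 0.62 ± 0.14 (adjusted p = 0.018).

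*ninaD* and *Arr1* are neighbours on the same strand, with 320 bases between the end of *Arr1* and the start of *ninaD*. The *ninaD* counts came to 0.141%, 0.155% and 0.165% of the *Arr1* counts in the Dicer2 25C control, and to 0.0629%, 0.0739% and 0.0941% in the RT control. This ratio did not overlap between the groups, while the level of *Arr1* did. Within each group the library with the highest *Arr1* level also had the highest *ninaD* level; whether any *ninaD* counts came from *Arr1* transcripts was not tested.

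*ninaB* (3R from 13700565 to 13703164, plus strand) encodes the oxygenase and isomerase that makes the chromophore from carotenoids. It was at 166, 154 and 155 CPM in the Dicer2 25C control and at 135, 182 and 188 CPM in the RT control. The Dicer2 25C values lay inside the RT range, and RT replicate 1 was again the lowest library. The log2 fold change was -0.09 ± 0.13 (SE, adjusted p = 0.67 in edgeR's quasi-likelihood test). Of its exonic bases, 81 are shared with *Adgf-D* and 63 with *f-cup*, both on the opposite strand.

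*santa-maria* (2L from 7445355 to 7451244, minus strand) encodes another class B scavenger receptor, which carries carotenoids into cells of the head outside the retina, where *ninaB* also acts. It was at 144, 145 and 151 CPM in the Dicer2 25C control and at 146, 157 and 178 CPM in the RT control. The groups overlapped narrowly, and the Dicer2 25C replicates were the closer together of the groups, with a coefficient of variation of 2.37% against 9.95% in the RT control. The log2 fold change was -0.13 ± 0.09 (SE, adjusted p = 0.37 in edgeR's quasi-likelihood test). The neighbouring gene *CG5973* shares 528 of its exonic bases (9.49%) on the opposite strand.

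Among the chromophore genes, *ninaD* rose in the fit of all 6 libraries while 2 other scavenger receptor genes of its class fell. All 11 genes of the list were tested; 1 was higher in the Dicer2 25C control, 2 were lower (4.83% and 5.28% of all genes), and 8 did not pass the test, with a median log2 fold change of -0.13. *dsb* was at 36.9, 46.7 and 53.9 CPM in the Dicer2 25C control and at 84.3, 95.9 and 95.3 CPM in the RT control (-1.0 ± 0.14 SE, adjusted p = 0.015 in edgeR's quasi-likelihood test). *pes* was at 62.3, 64.7 and 61.2 CPM in the Dicer2 25C control and at 82.7, 81.2 and 78.2 CPM in the RT control (-0.36 ± 0.06, adjusted p = 0.020). Neither gene is known to make chromophore; both were listed as class B scavenger receptors. *Pdh*, a retinol dehydrogenase of the pigment cells, was at 1350, 1340 and 1249 CPM in the Dicer2 25C control and at 854, 1657 and 1880 CPM in the RT control, with RT replicate 1 low as it was for *ninaA* and *ninaB* (-0.16 ± 0.28, adjusted p = 0.73).

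The phosphoinositide genes were uneven among the Dicer2 25C replicates. *rdgA* (X from 8907068 to 9029476, plus strand) encodes the diacylglycerol kinase that ends the lipid signal and starts the rebuilding of phosphoinositides. It was at 1227, 1181 and 768 CPM in the Dicer2 25C control and at 1143, 890 and 865 CPM in the RT control. Dicer2 25C replicate 3 was the lowest library and replicates 1 and 2 the highest, so the groups overlapped (log2 fold change 0.13 ± 0.21 SE, adjusted p = 0.70 in edgeR's quasi-likelihood test).

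*rdgB* (X from 13762752 to 13779488, plus strand) encodes the phosphatidylinositol transfer protein that carries the lipid back to the light-sensing membrane. It was at 369, 342 and 226 CPM in the Dicer2 25C control and at 335, 345 and 331 CPM in the RT control. The coefficient of variation was 24.3% in the Dicer2 25C control, against 2.14% in the RT control, with the 3rd Dicer2 25C replicate the lowest of the 6 libraries. The log2 fold change was -0.11 ± 0.18 (SE, adjusted p = 0.71 in edgeR's quasi-likelihood test) with all libraries and 0.08 ± 0.06 (adjusted p = 0.42) without Dicer2 25C replicate 3.

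Of the 13 genes on the phosphoinositide list, 12 had a row and were tested, and 0 passed the test as higher or lower in edgeR's quasi-likelihood test (4.83% and 5.28% of all genes). At an unadjusted p under 0.05, 1 was higher and 1 lower, and DESeq2 called 0 as higher and 1 as lower, *Pi3K59F*. Over all 10187 genes, in either direction, these numbers were 3131 and 1889. The median log2 fold change of the list was 0.11. *norpA*, the phospholipase C of the light response, was at 1804, 1634 and 1366 CPM in the Dicer2 25C control and at 1559, 1369 and 1304 CPM in the RT control (0.18 ± 0.14 SE, adjusted p = 0.41). *Cds*, the CDP-diacylglycerol synthase that acts after diacylglycerol kinase in the cycle, was at 1088, 1040 and 810 CPM in the Dicer2 25C control and at 727, 781 and 790 CPM in the RT control (0.35 ± 0.13, adjusted p = 0.12). Like *rdgA* and *rdgB*, both were lowest in replicate 3 of the Dicer2 25C control among its group.

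The deviation of Dicer2 25C replicate 3 followed exon length over all genes, and the 10 genes spanned it. The log2 ratio of replicate 3 to the mean of replicates 1 and 2 was -0.65 for *rdgA* (13764 exonic bases) and -0.65 for *rdgB* (9281 bases), against a median of -0.28 for the 1398 genes over 5 kb. It was 0.37 for *Arr1* (2476 bases), 0.22 for *Arr2* (1547 bases) and 0.53 for *ninaD* (1788 bases), against a median of 0.049 for genes of 1 to 5 kb. Length did not order all of the 10 genes: *rdgC* (5299 bases) was at -0.0092 and *santa-maria* (5563 bases) at 0.058, both above the middle range of genes of their length. What part library quality has in the values of this replicate was not tested.

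**Figure D3:**
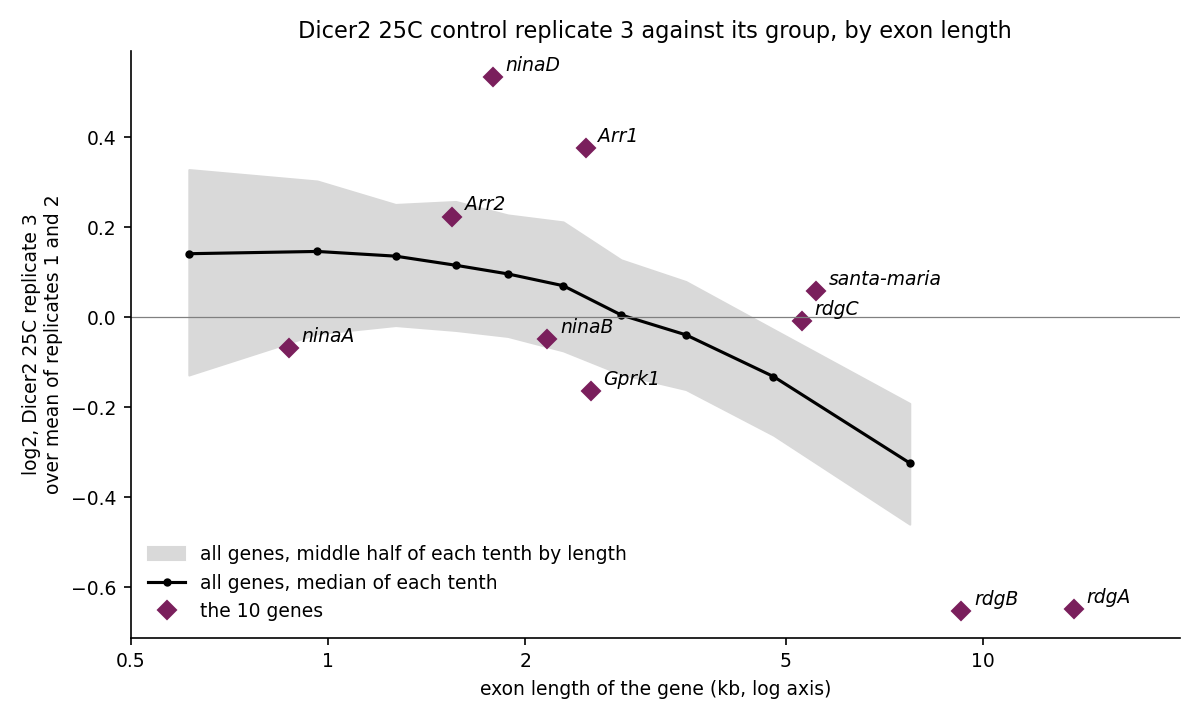
Log2 ratio of Dicer2 25C control replicate 3 to the mean of replicates 1 and 2 (vertical axis) against exon length in kb (log axis), for the 10 genes (diamonds) and for 9976 tested genes in 10 bins by length (line, median; band, 25th to 75th percentile). *rdgA* and *rdgB* lie lowest, at -0.65 each, and *ninaD* highest, at 0.53.

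Per kilobase of exon the genes ordered as *Arr2*, *Arr1*, *ninaA*, *ninaB*, *rdgA*, *rdgC*, *rdgB*, *Gprk1*, *santa-maria* and *ninaD*. The mean level was 9442 ± 866 CPM per kb for *Arr2* in the Dicer2 25C control, against 9284 ± 532 CPM per kb in the RT control, and for *Arr1* it was 4148 ± 647 CPM per kb in the Dicer2 25C control, against 4175 ± 308 CPM per kb in the RT control (SD, n = 3 each). *ninaA*, the next in order, was at 177 ± 5.31 CPM per kb in the Dicer2 25C control, against 133 ± 28.5 CPM per kb in the RT control. *ninaD* was the lowest, at 8.91 ± 2.03 CPM per kb in the Dicer2 25C control, against 4.49 ± 1.18 CPM per kb in the RT control. The other genes lay between 23.4 and 89.1 CPM per kb over the 6 libraries. Of the neighbours in this order, *ninaB* and *rdgA*, *rdgA* and *rdgC*, *rdgB* and *Gprk1*, and *Gprk1* and *santa-maria* overlapped over the 6 libraries, and the other neighbours did not. Per kilobase of coding sequence *rdgA* moved to the third place, at 231 CPM per coding kb over all libraries against 190 for *ninaA*, and *Arr2*, *Arr1* and *ninaD* kept their places.

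**Figure D4:**
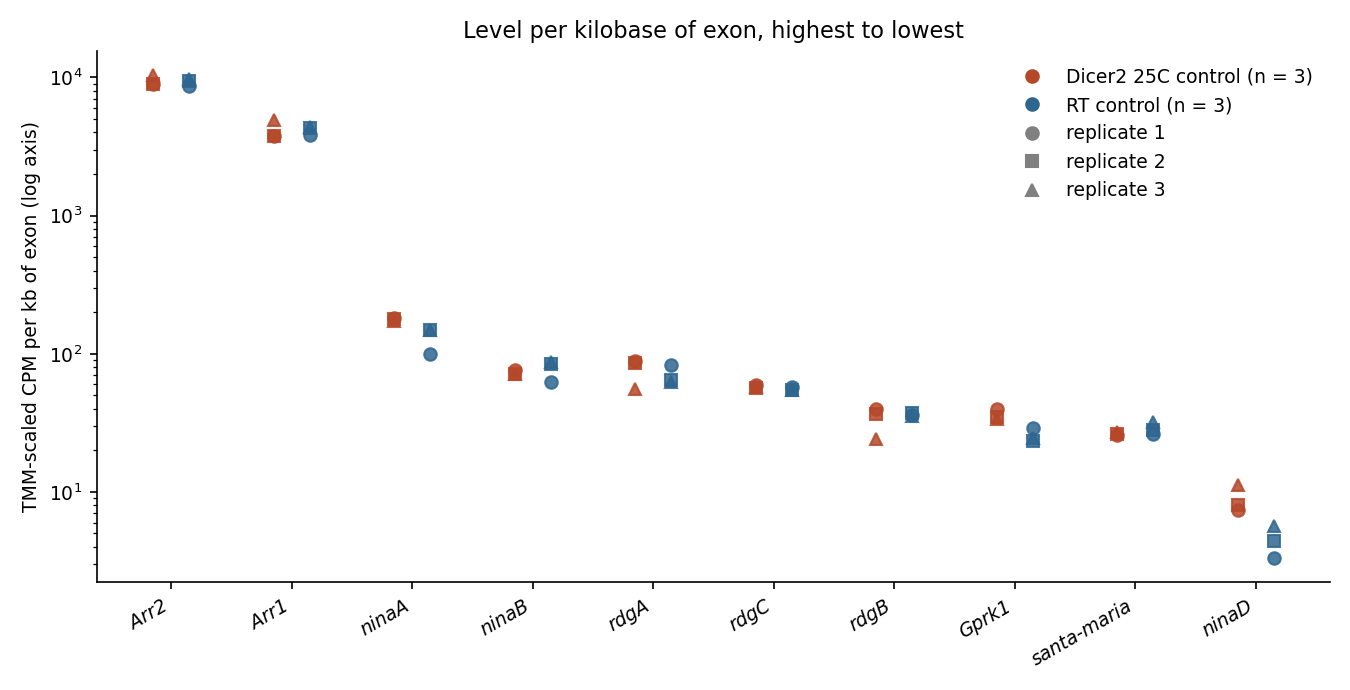
TMM-scaled CPM per kb of exon (log axis) of the 10 genes in order of their mean, with the 3 Dicer2 25C control libraries left of the 3 RT control libraries for each gene. *Arr2* and *Arr1* lie more than an order of magnitude above *ninaA*, and *ninaD* lies lowest, at 8.91 CPM per kb in the Dicer2 25C control, against 4.49 CPM per kb in the RT control.

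The 10 genes were next set against the level of photoreceptor marker genes in each library, since in whole heads fewer cells of a type and less RNA per cell cannot be told apart. The part of each gene's RNA that came from photoreceptors was not measured. The relative values are therefore not levels per photoreceptor for any of the 10 genes. Of these, *ninaD*, *ninaB* and *santa-maria* are known from cells outside the retina. The 12 photoreceptor markers were all detected in every library, and their summed level was 60993 to 72510 CPM in the Dicer2 25C control, against 48952 to 50722 CPM in the RT control. By edgeR's quasi-likelihood test 0 of the 12 passed an adjusted p under 0.05. At an unadjusted p under 0.05, 3 were higher and 0 lower, and DESeq2 called 4 as higher and 0 as lower. Over all 10187 genes, in either direction, these numbers were 3131 and 1889. The mean log2 CPM of the markers was 10.87 in the Dicer2 25C control, against 10.63 in the RT control, a difference of 0.24 (two-sided exact permutation test, p = 0.1, the smallest p possible). *ninaE*, the gene of Rh1, was at 38488, 39123 and 52725 CPM in the Dicer2 25C control and at 30986, 31189 and 31930 CPM in the RT control (log2 fold change 0.47 ± 0.24 SE, adjusted p = 0.24 in edgeR's quasi-likelihood test). The log2 fold changes of the other markers ran from -0.04 ± 0.22 for *eys*, which encodes a protein of the space between the light-sensing membranes, to 0.59 ± 0.16 for *Rh5*, a blue-sensitive rhodopsin (adjusted p = 0.93 and 0.062).

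Relative to the mean of the photoreceptor markers, *ninaD* and *Gprk1* lay higher in the Dicer2 25C control, but for *Gprk1* this depended on the scale. The difference of the group means of log2 CPM minus the marker mean was 0.76 for *ninaD* and 0.26 for *Gprk1*, and -0.38 for *rdgB*, -0.36 for *santa-maria* and -0.19 for *rdgC*. The libraries of the groups did not overlap for these 5 genes (two-sided exact permutation test over libraries, p = 0.1 for each, the smallest that 3 against 3 can give, so no such value can pass 0.05). The share of all genes without overlap on this scale was not counted, so this is no result about the 10 genes as a group. In CPM without the marker scale, the groups overlapped for *rdgB*, *santa-maria* and *rdgC*. The differences of the other 5 genes were -0.32 for *ninaB*, -0.26 for *Arr1*, -0.22 for *Arr2*, -0.13 for *rdgA* and 0.20 for *ninaA*, with p from 0.2 to 0.8 by the same exact permutation test. With *ninaE* alone as the scale, the difference of *Gprk1* was 0.045 and its groups overlapped (exact permutation test, p = 1), while that of *ninaD* was 0.55 (p = 0.1 by the same exact permutation test). On the scale of the marker mean 7 of the 10 genes had a difference below 0, beside a marker mean that was itself higher in each Dicer2 25C library than in any RT library.

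In the fit of all 6 libraries, *Galphaq*, *Ggamma30A* and *trpl* rose among the genes of the light-response core. Of 18 tested, 3 were higher and 0 lower in edgeR's quasi-likelihood test (4.83% and 5.28% of all genes), and 15 did not pass. At an unadjusted p under 0.05, 6 were higher and 1 lower, and DESeq2 called 7 as higher and 1 as lower. Over all 10187 genes, in either direction, these numbers were 3131 and 1889. *Galphaq*, the G protein subunit that rhodopsin activates, was at 323, 303 and 272 CPM in the Dicer2 25C control and at 208, 181 and 185 CPM in the RT control (0.65 ± 0.10 SE, adjusted p = 0.016 in edgeR's quasi-likelihood test). *Ggamma30A*, its gamma partner, had a log2 fold change of 0.53 ± 0.12 (adjusted p = 0.041). *trpl*, a light-activated cation channel, was at 5819, 5729 and 5782 CPM in the Dicer2 25C control and at 3667, 4034 and 4114 CPM in the RT control (0.55 ± 0.12, adjusted p = 0.041).

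Among markers of other head tissues, the summed levels of fat body and glia did not overlap between the groups. Those of muscle, neurons, haemocytes, and lens and pigment cells did. Beside the counts below, edgeR called 4.83% of all genes as higher and 5.28% as lower. In either direction, 3131 of all 10187 genes had an unadjusted p under 0.05, and DESeq2 called 1889. Fat body markers summed to 16390 to 25947 CPM in the Dicer2 25C control, against 34468 to 48069 CPM in the RT control, with 2 of 6 tested genes lower and 0 higher in edgeR's quasi-likelihood test (3 lower and 0 higher at an unadjusted p under 0.05 and by DESeq2). Most of this sum came from the yolk protein genes *Yp1*, *Yp2* and *Yp3*. The 2 called were *Yp3* (log2 fold change -1.32) and *apolpp* (-0.61). In the same edgeR test *Lsp2* (-0.17 ± 0.32 SE, adjusted p = 0.75) and *Cyp4g1* (0.78 ± 0.83, adjusted p = 0.56) did not pass. Muscle markers summed to 15654, 15438 and 7637 CPM in the Dicer2 25C control and to 7162 to 8015 CPM in the RT control, with 1 of 8 higher and 0 lower in edgeR's quasi-likelihood test (6 higher and 0 lower at an unadjusted p under 0.05, and 4 higher and 0 lower by DESeq2). Neuron markers summed to 4233 to 5839 CPM in the Dicer2 25C control, against 4267 to 4438 CPM in the RT control, and glia markers to 1867 to 2297 CPM in the Dicer2 25C control, against 2329 to 2753 CPM in the RT control, with 0 of 8 and 0 of 7 called by edgeR (DESeq2 called 1 neuron marker as higher and 1 glia marker as lower, and at an unadjusted p under 0.05 it was 2 higher and 2 lower). The 5 haemocyte markers tested summed to 823 to 1100 CPM in the Dicer2 25C control, against 948 to 1459 CPM in the RT control, and those of lens and pigment cells to 1650 to 1930 CPM in the Dicer2 25C control, against 1346 to 3577 CPM in the RT control. In both of these lists 0 of 5 were called by edgeR; DESeq2 called 0 haemocyte markers as higher and 2 as lower, and 1 lens or pigment cell marker as higher and 2 as lower, and the counts at an unadjusted p under 0.05 were the same. Male and testis markers summed to at most 0.314 CPM in any library of these female flies. The part of these shifts in the values of the 10 genes was not tested.

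For 3 genes, the genes with the most similar pattern over the 6 libraries were sought among 7154 other tested genes with a mean above 10 CPM, by the Pearson correlation of log2 CPM; the libraries share their scaling and depth, and the values are a description. *Arr2* was most like *ebd1*, *Ns4*, *CG18004*, *CG5162* and *Ing3*, with r from 0.977 to 0.991. *ninaD* was most like *CG11811*, *CG14984*, *Ube4A*, *CG6912* and *Bdbt* (r from 0.984 to 0.991). *Gprk1* was most like *Hr3*, *CG2924*, *CG31388*, *Zyx* and *PIP4K* (r from 0.993 to 0.997). Of these 15 genes only *Hr3* passed the test between the groups, at 28.4, 23.1 and 22.4 CPM in the Dicer2 25C control, against 17.6, 14.1 and 14.7 CPM in the RT control (log2 fold change 0.67, adjusted p = 0.029 in edgeR's quasi-likelihood test).

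Without both Dicer2 25C replicate 3 and RT replicate 1, a setting chosen after the data were seen, 6 of the 10 genes were called at an adjusted p under 0.05, beside 36.6% of all genes. *Gprk1* (log2 fold change 0.64 ± 0.07 SE, adjusted p = 0.0021), *rdgA* (0.46 ± 0.05, adjusted p = 0.0022) and *ninaA* (0.27 ± 0.04, adjusted p = 0.0054) were higher in the Dicer2 25C control, as was *ninaD*. *Arr1* (-0.21 ± 0.04, adjusted p = 0.010) and *ninaB* (-0.21 ± 0.05, adjusted p = 0.029) were lower. The values of the other genes were -0.10 ± 0.04 for *Arr2* (adjusted p = 0.098), -0.21 ± 0.07 for *santa-maria* (0.056), 0.07 ± 0.06 for *rdgB* (0.39) and 0.08 ± 0.05 for *rdgC* (0.27). The libraries left out were picked for standing apart from their groups, so these edgeR p-values rest on a spread that was narrowed by that choice.

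**Figure D5:**
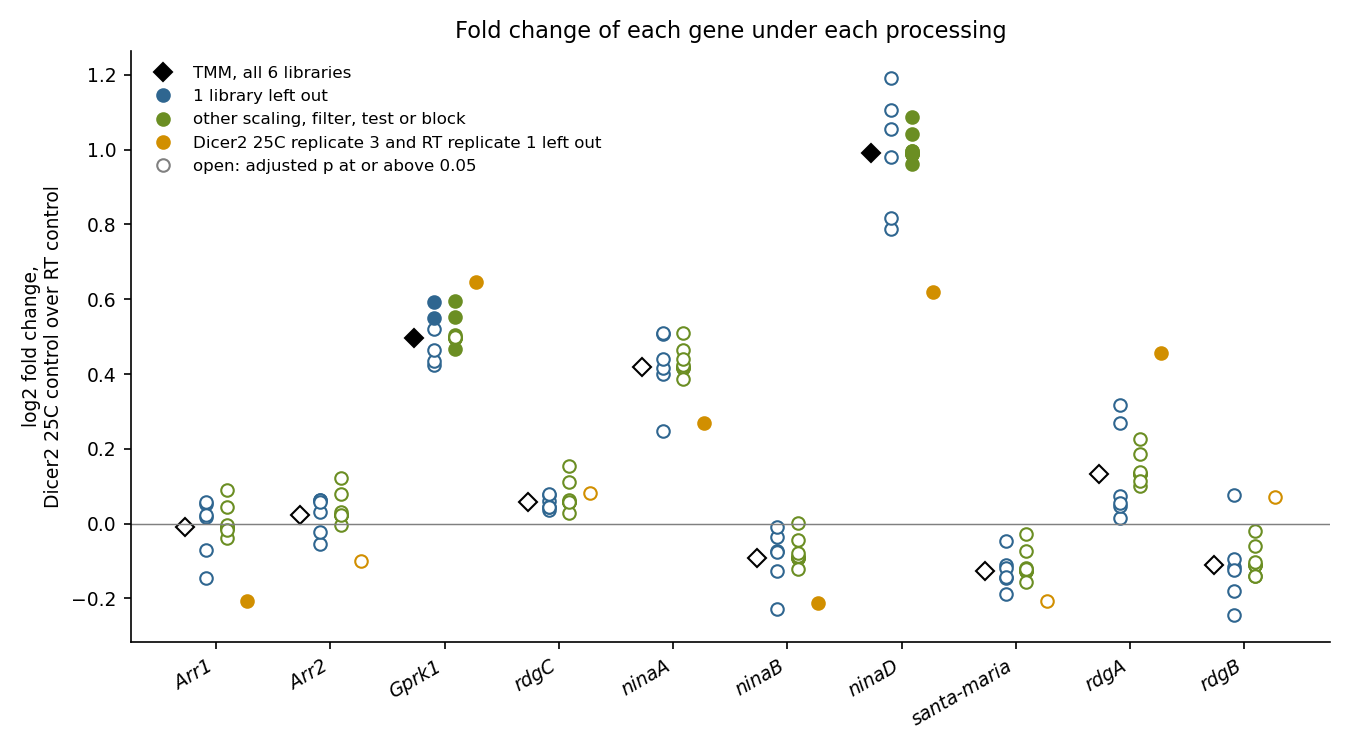
Log2 fold change of the Dicer2 25C control over the RT control for the 10 genes (vertical axis) with all 6 libraries (diamonds), with 1 library left out, with another scaling, filter, test or replicate block, and without both Dicer2 25C replicate 3 and RT replicate 1; symbols are filled where the adjusted p was under 0.05. *Gprk1* stays between 0.42 and 0.64 and *ninaD* between 0.62 and 1.19, while *Arr1* and *Arr2* lie on both sides of 0.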

How the data were processed

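Raw counts of reads per gene were deposited by the authors, 1 table per library, without normalization or pooling of replicates. Per the labels and the study's methods, single-end reads of 100 bases from a stranded kit were trimmed with Trimmomatic 0.36, aligned to fly genome and transcriptome build 6.08 with TopHat2 (2.1.0 in the submitters' processing notes; the methods name another version) and counted with HTSeq 0.6.1. The strand setting is not given in the sources used here. Reads assigned to no gene (3.16% to 4.76% of counted, unassigned and ambiguous reads together) and to several genes (2.36% to 3.62%) were left out of library sizes.

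Symbols, positions and exon lengths came from the BDGP6.54 annotation, which is on the same assembly and matched 17253 of 17559 identifiers. Genes were filtered with filterByExpr, scaled by TMM and tested with the quasi-likelihood test of edgeR 4.0.16 (R 4.3.3), Dicer2 25C control over RT control, without the replicate number; each standard error (SE) is the absolute log2 fold change divided by √F. Single values used exact permutation tests in SciPy 1.17.1. Depth limits the smallest measurable level to 0.071 to 0.161 CPM (3 counts). The quasi-likelihood test was tested on counts simulated from the observed means, library sizes and dispersions, without a trend by exon length. DESeq2 and the likelihood ratio test were not tested in this way.

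The genes named were the 10 genes, the photoreceptor markers, *Dcr-2*, up to 3 genes of each pathway list by lowest p at an adjusted p under 0.05 or else the most abundant, and for *Arr2* and each called member the 5 most similar genes; others named were chosen after their values were seen. Members and lists were chosen with earlier results of these data known. Of 114 listed genes other than the members, 6 had no row. Alternatives were RLE, upper quartile and no scaling factors, DESeq2 1.42.0, the likelihood ratio test, other filters, the replicate block and libraries left out. Replicates are separate pools of heads; chi-square tests of their counts gave 32.2 to 153 per degree of freedom, so none is a copy.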

Additional observations from a re-analysis of the deposited data

How the results depend on the processing

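All 10 genes were refitted under 15 alternatives. *santa-maria*, *rdgC*, *rdgA*, *ninaA*, *ninaD* and *Gprk1* kept their sign in each; *ninaD* was called in 9 and *Gprk1* in 10 of them. *Arr1* turned positive with upper quartile scaling (0.046), with library totals alone (0.090) and in 4 fits without 1 library (range over the 6, -0.15 to 0.057). *Arr2* turned negative without a filter (-0.0048), in 2 fits without 1 library (range -0.054 to 0.064) and without both Dicer2 25C replicate 3 and RT replicate 1 (-0.10); that last fit gave 0.072 for *rdgB*, which lay between -0.24 and 0.077 with 1 library left out. *ninaB* was 0.00074 with library totals alone. With both libraries left out, *Arr1* (-0.21), *ninaA* (0.27), *ninaB* (-0.21) and *rdgA* (0.46) also passed the threshold. With 1 library left out, *ninaD* lay between 0.79 and 1.19 and *Gprk1* between 0.42 and 0.59. Relative to photoreceptor markers, *Gprk1* was 0.045 (0.26 with the marker list) and *ninaA* -0.012 with *ninaE* as the scale; *ninaA* lay between -0.019 and 0.32, and *rdgA* between -0.23 and 0.071, without 1 library.

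Genes past both thresholds numbered 287, with 54.0% higher (67.6% with library totals alone, which moved the median log2 fold change of all genes by 0.097), 437 with DESeq2, 495 with the likelihood ratio test, 1030 by adjusted p alone, 33 to 438 without 1 library and 560 without both libraries. By adjusted p alone, 44 to 1944 genes passed without 1 library. For listed genes other than the 10, fits without 1 library are not given here. Of the 10 genes, 0 to 1 were called without 1 library and 6 without both. Same-numbered libraries did not deviate together (r = -0.11, -0.013 and -0.0013). The labels link them only by number, and whether they shared a batch was not tested. With the replicate block, 91 genes passed both thresholds and 172 passed by adjusted p alone. Of the 10 genes 1 was called, *ninaD*, with *Gprk1* at 0.50 (adjusted p = 0.051 in edgeR's quasi-likelihood test). Causes were not tested. With 3 libraries a group, the spread between replicates limits the 10 genes more than depth does, since it exceeded the counting error for each.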
